A study of Mus musculus with 1119 samples.

Results

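The transit-amplifying matrix cells of the mouse hair bulb at postnatal day 30 (P30) were compared with matrix cells of the earlier growth phase at P25-P27. All cells of the P30 hair bulb table and all cells of 3 matrix plates of the P21 to P27 table were taken by table and title. Cells were kept if at least 2000 genes reached a level of 1 TPM, a unit of transcript abundance that is scaled to the same total in every cell. This left 75, 78, 71, 74 and 81 P30 cells on 5 plates and 55, 75 and 66 P25-P27 cells on 3 plates, 575 of the 1119 cells of the study in all. The authors' annotation calls both groups matrix cells (TACs), the P30 cells of the Ana6 stage and the P25-P27 cells of Ana2.

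The study sorted single cells of back skin along the hair cycle, from resting to growing follicles, and sequenced them with Smart-seq2, which reads whole transcripts of single cells in plate wells. P30 cells came from the strain Lhx2-GFP (CD1) and were sorted by Pcadherin, Sca-1 and CD34, by the integrins α6 and b1, and by GFP. P25-P27 cells came from the strain Lgr5-eGFPiresCreER;R26-tdTomato, in which GFP and Cre are driven by the stem cell gene Lgr5, and were sorted by Pcadherin, CD34, the same integrins and both fluorescent proteins. The labels do not say which of these markers were selected for or against. Sex was mixed in both groups, both were untreated as far as the labels say, and no animal was named, so that each group counted as 1 sample. Age, strain, sort, plate and deposited table changed together between the groups and cannot be told apart. No difference was tested. No label says whether plates differ in animal, so the spread between plates may be technical.

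The matrix surrounds the dermal papilla at the base of a growing follicle. Its cells divide a limited number of times and give rise to the layers of the hair shaft (medulla, cortex and cuticle) and of the inner root sheath, which moulds the shaft as it rises. The earliest matrix forms from the hair germ while the new bulb grows down. Signals of the WNT, BMP, hedgehog, FGF and Notch families between papilla and matrix set proliferation and the choice of layer, and homeobox and forkhead factors then turn on keratins, trichohyalin and the enzymes that modify them.

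Cells of the 2 groups differed in more than their matrix genes. The median number of genes per cell was 7413 at P30 and 5528 at P25-P27, the median share of TPM on ribosomal RNA rows was 76.8% and 67.3%, and that on spike-in rows 0.710% and 6.4%. All 10 keratinocyte markers were detected in both groups, and 92.1% of P30 cells and 99% of P25-P27 cells carried at least 3 of them at a TPM of 10 or more. Their levels differed, with a mean summed level of 688 TPM at P30 and 3392 TPM at P25-P27. By the same count of 3 markers, 38% of P30 cells and 0.510% of P25-P27 cells carried melanocyte genes, 18.5% and 2.55% carried dermal papilla and fibroblast genes, 16.1% and 0.510% carried smooth muscle and pericyte genes, and 5.54% and 53.1% carried genes of interfollicular epidermal differentiation. The mean summed level of the 15 melanocyte genes was 442 TPM at P30 and 13.7 TPM at P25-P27, and Mlana, Slc45a2, Gpr143 and Oca2, genes of melanosomes, were listed at 0 in every P25-P27 cell. The summed level of the 14 interfollicular genes was 51.8 TPM at P30 and 1241 TPM at P25-P27. Sebaceous gland genes reached 3 markers in 26.9% of P30 cells (17.3 to 48.1% by plate) and 4.59% of P25-P27 cells. Immune, endothelial and Merkel cell genes reached 3 markers in at most 1.53% of either group, with Cd3e and Cd207, of T cells and Langerhans cells, and Atoh1, of Merkel cells, at 0 in every cell.

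The overall comparison was made over 9842 expressed rows, a row being counted as expressed where 30% or more of either group's cells had it at 1 TPM or above. The measure throughout is the difference between P30 and P25-P27 in mean log2(TPM + 1), called the log2 difference, and a gene is called higher or lower at P30 where that difference is at least 1 (2-fold) and every plate of one group lies beyond every plate of the other. By this rule 1094 rows (11.1%) were higher and 539 (5.48%) were lower at P30. The median row was itself higher by 0.34. This balance depended on the scale. With differences centred on the median row, 519 were higher and 772 lower, with the log2 ratio of mean TPM + 1 the counts were 588 and 814, and with TPM rescaled after leaving out the ribosomal RNA, spike-in and mitochondrial rows they were 3761 and 576. Of the rows called, 34.5% of the higher and 84.8% of the lower ones were called on each of the 4 scales, and no called row changed direction into a call of the opposite sign.

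**Figure D1:**
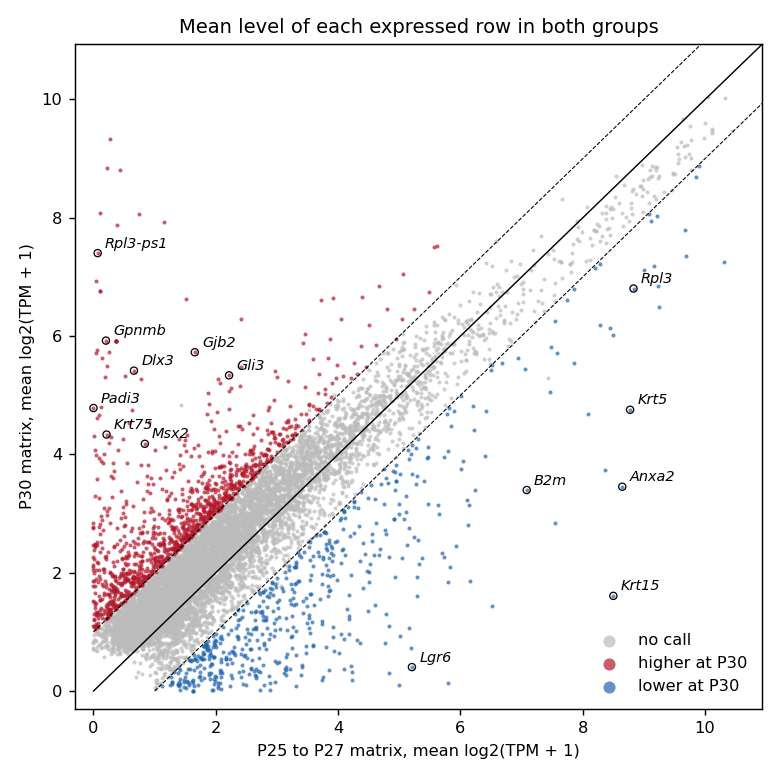
Mean log2(TPM + 1) of the 9842 expressed rows in P30 matrix cells (vertical axis) and P25 to P27 matrix cells (horizontal axis), with rows called higher at P30 in red and lower in blue. The solid line marks equal levels and the dashed lines a 2-fold difference. The red rows number 1094 and the blue rows 539.

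Of the 5 genes chosen to mark the later stage, Padi3, Krt75, Dlx3 and Msx2 were higher and Lgr6 was lower at P30. Padi3 encodes a peptidylarginine deiminase that turns arginine of trichohyalin and S100a3 into citrulline. Krt75 is a type II keratin of the medulla and companion layer. Dlx3 and Msx2 are homeobox factors of the matrix, needed in mice for hair shaft formation and maintenance. Lgr6 is a receptor for R-spondins that marks stem cells of the upper follicle. The 250 bases upstream of 4 of these genes, from RefSeq on GRCm38.p6 (the assembly called mm10), are shown because the markers moved in opposite directions. All 4 lie on the minus strand, at chr4:140810649-140810898 for Padi3, chr15:101573905-101574154 for Krt75, chr13:53472781-53473030 for Msx2 and chr1:135105277-135105526 for Lgr6. Upstream and before mean ahead of the RefSeq start of each gene. In the GENCODE annotation used for gene positions Msx2 reaches to 53473074, so its window lies inside the gene there. Capitals mark the letters CTTTG (the core bound by LEF1 and TCF factors), TAATT (a homeobox core) and CCAAT, on either strand and with overlaps kept.
Padi3: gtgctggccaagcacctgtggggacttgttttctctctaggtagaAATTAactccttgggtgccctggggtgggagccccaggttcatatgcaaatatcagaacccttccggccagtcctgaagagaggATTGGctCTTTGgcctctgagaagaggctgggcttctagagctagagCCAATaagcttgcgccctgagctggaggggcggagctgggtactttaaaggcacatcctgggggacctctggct
Krt75: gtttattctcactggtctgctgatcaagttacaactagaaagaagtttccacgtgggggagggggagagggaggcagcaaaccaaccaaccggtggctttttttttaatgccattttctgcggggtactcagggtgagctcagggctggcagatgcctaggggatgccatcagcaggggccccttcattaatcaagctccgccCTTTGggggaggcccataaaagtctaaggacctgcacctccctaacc
Msx2: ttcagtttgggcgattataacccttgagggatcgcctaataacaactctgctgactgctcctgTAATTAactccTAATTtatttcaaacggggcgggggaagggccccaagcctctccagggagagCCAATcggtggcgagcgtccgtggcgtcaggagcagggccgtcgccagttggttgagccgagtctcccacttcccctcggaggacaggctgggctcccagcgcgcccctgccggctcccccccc
Lgr6: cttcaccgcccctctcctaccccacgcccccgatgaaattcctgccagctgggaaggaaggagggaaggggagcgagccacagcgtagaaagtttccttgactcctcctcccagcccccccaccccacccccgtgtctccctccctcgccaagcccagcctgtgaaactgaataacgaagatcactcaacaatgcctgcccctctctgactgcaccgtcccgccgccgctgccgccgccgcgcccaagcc
CTTTG occurred once before the start of Padi3 and once, at 47 bases, before that of Krt75, and was in 48.6% of all 32851 promoters of the same length. TAATT occurred once before Padi3 and 3 times before Msx2, where 2 matches overlap on opposite strands, against 25% of all promoters with a match. CCAAT, in 33.8% of all promoters, occurred 2 times before Padi3, the nearer at 74 bases, and 1 time before Msx2. The Lgr6 window held none of the 3 letter strings. These matches describe the letters only.

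Padi3 was listed at 71.9, 95.1, 76.3, 95.2 and 92.1 TPM on the P30 plates, against 0, 0 and 0 TPM on the P25-P27 plates. It was thus present on every P30 plate and listed at 0 in each P25-P27 cell. It was seen in 81% of P30 cells (95% exact binomial interval 76.7 to 84.8, which covers the counting of cells only) against 0% of P25-P27 cells, and its log2 difference was 4.78. Taken as 3 cells of the group, the limit that no positive P25-P27 cell allows is a share of 1.53%, which bounds cells with a listed value and not expression. Krt75 was listed at 79.4, 102.6, 76.5, 90.9 and 135.9 TPM on the P30 plates, against 0.139, 0.986 and 3.79 TPM on the P25-P27 plates. The lowest P30 plate was well above the highest P25-P27 plate, and the gene was seen in 69.7% of P30 cells (64.8 to 74.2) against 6.12% of P25-P27 cells (3.20 to 10.5) (log2 difference 4.12). Plate P2-1 had the largest share of Krt75 cells, 87.7%, against 60.6 to 67.6% on the other P30 plates.

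Dlx3 was listed at 77.2, 69.4, 76.4, 70.7 and 78 TPM on the P30 plates, against 1.25, 4.93 and 8.85 TPM on the P25-P27 plates. Its P30 plates were alike, while its P25-P27 plates spread, the gene being seen in 94.7, 84.6, 90.1, 87.8 and 93.8% of cells on the P30 plates and 5.46, 13.3 and 34.8% on the P25-P27 plates. The log2 difference was 4.75, and the gene was seen in 90.2% of P30 cells (86.8 to 93) against 18.4% of P25-P27 cells (13.2 to 24.5). Msx2 was listed at 32, 30.2, 35.3, 32.8 and 37.6 TPM on the P30 plates, against 2.47, 3.88 and 4.54 TPM on the P25-P27 plates. It was the least different of the 4 higher markers (log2 difference 3.34), and it was seen in 84.2% of P30 cells (80.1 to 87.7) against 24% of P25-P27 cells (18.2 to 30.6). Lgr6 was listed at 0.866, 1.86, 7.30, 2.69 and 1.19 TPM on the P30 plates, against 91.3, 100.4 and 62.6 TPM on the P25-P27 plates. The groups did not overlap on any plate, the log2 difference was -4.80, and the gene was seen in 10.03% of P30 cells (7.19 to 13.5) against 83.7% of P25-P27 cells (77.7 to 88.6).

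All 5 markers kept their direction on every scale tried. Without cells that carried a melanocyte marker at a TPM of 10 the differences were 3.03 for Padi3, 1.48 for Krt75, 3.76 for Dlx3, 2.12 for Msx2 and -4.42 for Lgr6, each still a call. This setting, and that without cells carrying 3 interfollicular differentiation markers, were chosen after the data had been seen. Cells carrying 3 or more of the latter markers are called interfollicular cells below for short. The short name stands for this count of markers and not for a cell type. They made up 53.1% of P25-P27 cells, and the authors' annotation calls them matrix cells like the rest. The part that cells of either kind play in the other differences was not tested. Genes named that lost their call without either kind, or on 1 of the 4 scales, are given as such beside their list.

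**Figure D2:**
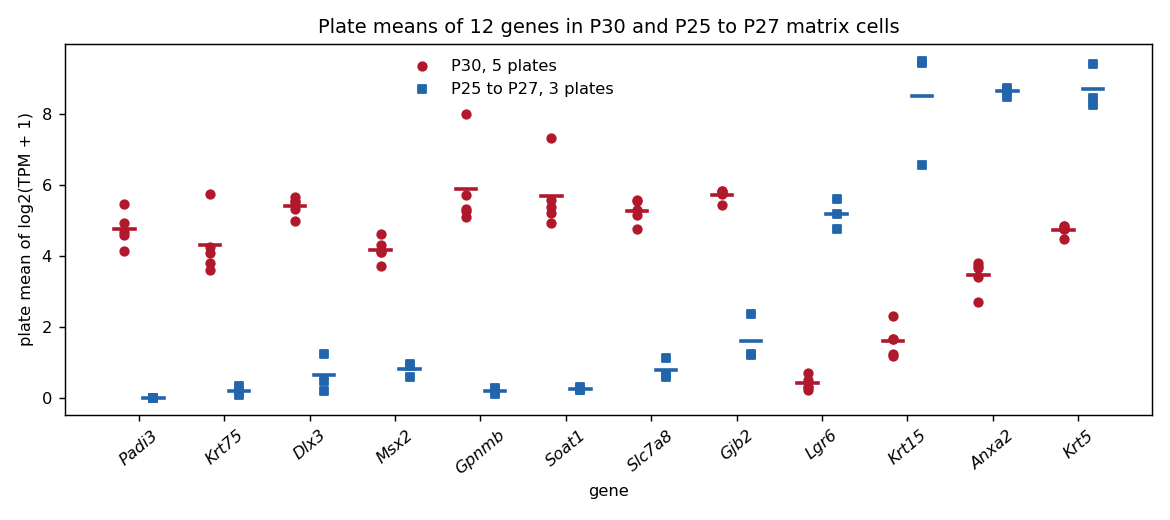
Plate means of log2(TPM + 1) for 12 genes, with the 5 P30 plates as red circles left of the 3 P25 to P27 plates as blue squares, and short lines at the mean of the plates. For each gene every P30 plate lies on one side of every P25 to P27 plate, and the P30 plate standing above the rest for Gpnmb and Soat1 is P2-1.

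The 12 largest differences upward, predicted models and pseudogenes aside, were those of Gpnmb, Soat1, Fabp5, Stra6, Padi3, Dlx3, Slc7a8, Prr5l, Krt75, Gjb2, Aldh1a3 and Eno1b, with log2 differences of 3.95 to 5.72. Gpnmb, a transmembrane glycoprotein known from melanosomes and macrophages, was listed at 425, 501, 396, 456 and 722 TPM on the P30 plates, against 1.03, 0.283 and 1.83 TPM on the P25-P27 plates. Every P30 plate was far above the other group, but its difference was 1.53 and no call without cells carrying melanocyte markers. Soat1, which esterifies cholesterol and is mutated in a mouse strain with a defective hair interior, was listed at 329.6, 422, 277.8, 291.96 and 642 TPM on the P30 plates, against 0.949, 1.49 and 1.30 TPM on the P25-P27 plates. It was called higher with those cells left out as well, at 3.11. Plate P2-1 was the highest of the P30 plates for both genes.

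Fabp5, the epidermal fatty acid binding protein, stood at 263.5 TPM in P30 cells against 23.8 TPM in P25-P27 cells (log2 difference 5.11), in 89.7% of P30 cells against 28.6% of P25-P27 cells. Stra6, a membrane receptor for retinol uptake, stood at 163.9 TPM in P30 cells against 3.19 TPM in P25-P27 cells (4.81), and Aldh1a3, which oxidises retinaldehyde to retinoic acid, at 92 TPM in P30 cells against 0.032 TPM in P25-P27 cells (4.06). Both genes of the retinoid path were therefore higher on every P30 plate, Stra6 in 75.7% of P30 cells against 12.8% of P25-P27 cells. Slc7a8, an exchanger of large neutral amino acids, stood at 93.3 TPM in P30 cells against 3.43 TPM in P25-P27 cells (4.51), and Prr5l, a binding partner of the mTORC2 kinase complex, at 51.7 TPM in P30 cells against 0.0077 TPM in P25-P27 cells (4.31). Gjb2, the gap junction protein connexin 26, was listed at 247.2, 233.8, 191.9, 161.5 and 78.9 TPM on the P30 plates, against 16.3, 28.1 and 6.95 TPM on the P25-P27 plates, with the lowest P30 plate still above the highest P25-P27 plate. Eno1b, at 23.4 TPM in P30 cells against 0.086 TPM in P25-P27 cells, is a near-copy of the glycolysis gene Eno1, which stood at 49.2 against 77.1 TPM, so that reads may be split between them and its difference is uncertain.

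Of the 12 largest differences downward, Krt15, a basal keratin of bulge stem cells, had the largest (-6.89) and was listed at 82.5, 49.2, 33, 20.3 and 55.7 TPM on the P30 plates, against 1384, 1638 and 520.1 TPM on the P25-P27 plates. Plate 920mat was the lowest of the P25-P27 plates and still above every P30 plate. Krt5, a type II keratin of basal cells, was listed at 98.1, 86.5, 81.9, 73 and 110.6 TPM on the P30 plates, against 847, 937 and 772 TPM on the P25-P27 plates (-4.02) and was seen in 81% of P30 cells against 95.4% of P25-P27 cells, so that most P30 cells still carried it at a lower level. Anxa2, a calcium-dependent membrane-binding annexin, stood at 41.5 TPM in P30 cells against 537 TPM in P25-P27 cells (-5.19), and Anxa8, another annexin, at 2.21 TPM in P30 cells against 327.9 TPM in P25-P27 cells (-5.66). Cav1, the coat protein of caveolae, was seen in 24% of P30 cells against 95.9% of P25-P27 cells (-5.08).

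The other genes of the 12 were Capns2, a calpain small subunit (-4.90), Lgr6, Dmkn, a secreted epithelial protein (-4.53), Tsc22d3, a glucocorticoid-induced leucine zipper protein (-4.45), Txnip, a thioredoxin-binding protein (-4.31), Cd200, a surface glycoprotein of follicle stem cells (-4.10), and Ckmt1, a mitochondrial creatine kinase (-4.08). Cd200 was seen in 25.6% of P30 cells against 79.6% of P25-P27 cells and Tsc22d3 in 24% of P30 cells against 87.2% of P25-P27 cells. Dmkn, itself an interfollicular differentiation gene, was at -1.05 and no call without cells carrying 3 such markers, and Anxa8 was at -2.60 there and still lower. Of the 12, Dmkn was the single one that lost its call under that setting or under the 4 scales.

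Genes of the hair layers had list medians well above that of all rows. Over all expressed rows 11.1% were higher and 5.48% lower, and these shares belong beside the count of each list from here on. Of 14 expressed medulla genes 11 were higher and 2 lower, with a median log2 difference of 2.52 against 0.34 over all rows. Foxq1, a forkhead factor needed in mice for the medulla, was listed at 45.4, 50.9, 37, 46.6 and 81.3 TPM on the P30 plates, against 2.96, 0.383 and 0.908 TPM on the P25-P27 plates. It was seen in 64.1% of P30 cells against 10.2% of P25-P27 cells, so that the positive share, and not only the level, was larger on each P30 plate. Fabp4, a fatty acid binding protein, stood at 110.3 TPM in P30 cells against 0.671 TPM in P25-P27 cells (3.53). The 2 lower members were Gata3, a zinc finger factor of the inner root sheath, at 8.14 TPM in P30 cells against 51.9 TPM in P25-P27 cells (-3.73), and Notch1, the receptor, at 22.5 against 38 TPM (-2.13). Without cells carrying melanocyte markers 3 medulla genes were higher and 1 lower (median 0.97), with Padi3, Krt75 and Fabp5 among the 3. Foxq1 was then at 0.96, Fabp4 at 1.45 and Notch1 at -0.46, with no call for any of them, and Notch1 was not called as a log2 ratio either.

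Of 11 expressed inner root sheath genes 8 were higher and 3 lower (median 2.06), beside 11.1% and 5.48% of all rows. Another 9 genes of the list did not reach the expression filter. S100a3, a calcium-binding substrate of Padi3 in the hair cuticle, stood at 71.6 TPM in P30 cells against 2.19 TPM in P25-P27 cells (3.53) and Tchh, trichohyalin, the matrix protein of sheath and medulla, at 70.8 TPM in P30 cells against 0.236 TPM in P25-P27 cells (2.84). Tgm3, a cross-linking transglutaminase, gave 2.56. The inner root sheath keratins Krt25, Krt27 and Krt28 gave 2.22, 2.06 and 2.29, and Krt25 was seen in 52% of P30 cells against 1.02% of P25-P27 cells. Krt71, Krt73, Krt72 and Krt74, their type II partners, were at or under the filter: Krt71 was seen in 14.8% of P30 cells against 3.06% of P25-P27 cells and had 90.3 TPM on plate P1-6 against 0.653 to 3.95 TPM on the other P30 plates. Gata3 was lower, and so were Dsg1a and Dsg1b, desmogleins of differentiating cells (-1.27 and -1.33), neither of which was called without interfollicular cells. Without cells carrying melanocyte markers 5 sheath genes were higher and 2 lower (median 1.15), and Tchh at 1.15, Tgm3 at 0.81 and Dsg1a at -0.76 were not called.

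Hair shaft keratins were mostly under the expression filter at both ages. Of 20 genes with a row, 4 passed the filter. Krt35, the type I keratin of cortex and cuticle, stood at 20.8 TPM in P30 cells against 4.61 TPM in P25-P27 cells (1.23) and Krt83, a type II cortex keratin, at 6.85 against 0.374 TPM (1.23), both higher, while Lgals3, a galectin, was lower (-2.08) and S100a3 has been given above. Krt35 and Krt83 were at 0.46 and 0.65 without cells carrying melanocyte markers and were called neither there nor when differences were centred. Krt35 was also not called without interfollicular cells or as a log2 ratio. Lgals3 was at -0.03 and no call without interfollicular cells, and was not called with rescaled TPM. Krt31, Krt86 and Krt81 were seen in 9.76, 20.6 and 18.7% of P30 cells and in at most 2.04% of P25-P27 cells. Of 41 keratin-associated proteins, which bundle keratins in the shaft, 2 passed the filter and both were higher. Krtap8-1 was listed at 37.1, 86, 68.7, 41.2 and 57.2 TPM on the P30 plates, against 0, 0 and 0 TPM on the P25-P27 plates, and Krtap15 at 19 TPM in P30 cells against 0 TPM in P25-P27 cells. They were seen in a minority of P30 cells, 39.6% and 43.5%. Neither was called without cells carrying melanocyte markers.

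Of 21 expressed matrix transcription factors 13 were higher and 4 lower (median 1.46), beside 11.1% and 5.48% of all rows. Msx1, a homeobox factor related to Msx2, was listed at 26.2, 31.5, 27.2, 21.3 and 30.5 TPM on the P30 plates, against 0, 2.69 and 2.75 TPM on the P25-P27 plates. The separation of plates was as wide as for Msx2. Dlx4 and Dlx2, of the same family as Dlx3, gave 2.75 and 1.78. Lef1, the DNA-binding partner of β-catenin in the matrix, gave 2.64, Prdm1, a transcriptional repressor, 2.39, and Hoxc13, a factor that activates hair keratin genes, 2.18. Of the 4 lower factors, Gata3 is given above, Vdr, the vitamin D receptor, gave -2.99, Bcl11b, a zinc finger factor of epidermal progenitors, gave -2.73, and Lhx2, whose reporter was used in the P30 sort, gave -1.30. Without cells carrying melanocyte markers 6 factors were higher and 2 lower, the 6 holding Dlx3, Msx1, Msx2, Dlx4, Dlx2 and Cux1. Prdm1 was then at -0.13, Hoxc13 at 0.60, Lef1 at 1.17, Vdr at -1.73 and Lhx2 at -0.18, none of them a call. Vdr and Lhx2 were not called as log2 ratios, nor Lhx2 with rescaled TPM, and Hoxc13 and Lef1 were not called without interfollicular cells. Cux1, which regulates hair and sheath genes, was called higher (1.36) but was at -0.04 as the log2 ratio of mean TPM + 1 and 0.10 without interfollicular cells.

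Most expressed genes of the bulge, and 7 of 13 of the outer root sheath and companion layer, were called lower. Of 19 expressed bulge genes 15 were lower and 1 higher (median -1.92), beside 5.48% lower and 11.1% higher of all rows. After Krt15 came Col17a1, the transmembrane collagen of hemidesmosomes, at 14.5 TPM in P30 cells against 138.8 TPM in P25-P27 cells (-3.31), Sox9, a stem cell transcription factor (-2.98), Nfatc1, a factor of stem cell quiescence (-2.85), Postn, a matricellular protein (-2.84) and Tcf7l2, a WNT-responsive TCF factor (-2.75). The 1 higher gene was Id2, an inhibitor of bHLH factors (1.68), which was not called as a log2 ratio (0.61). Without cells carrying melanocyte markers 9 were lower and none was higher, Id2 being at 0.65, and without interfollicular cells 12 were lower and 1 higher, Nfatc1 then being at -0.93 with no call. Of the outer root sheath and companion genes 3 were higher (median of the list -2.19). Without interfollicular cells that median was -0.66, with 5 lower and 2 higher. Krt14, the type I partner of Krt5, stood at 55.3 TPM in P30 cells against 776 TPM in P25-P27 cells (-4.70), and Aqp3, a water and glycerol channel, at 1.87 against 90.2 TPM (-3.56). The 3 higher were Krt75, Gjb2 and Gjb6, the connexin 30 gene (1.97). Gjb6 was not called without cells carrying melanocyte markers (1.68), without interfollicular cells (1.21) or as a log2 ratio (0.97).

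All 6 genes of the Lgr, Lrig and R-spondin receptor list, with the ubiquitin ligases Znrf3 and Rnf43, passed the filter. Of these 4 were lower with none higher (median -1.78), beside 5.48% lower and 11.1% higher of all rows. Lgr6 was the furthest, followed by Lrig1, a stem cell restraint on growth factor receptors (-2.84), Lgr5, driver of the P25-P27 reporter (-1.80), and Lgr4, a broadly expressed R-spondin receptor (-1.76). Lgr5 was listed at 39.1, 24.4, 22, 16.2 and 2.31 TPM on the P30 plates, against 19.5, 44.2 and 35.7 TPM on the P25-P27 plates. The groups overlapped in mean TPM, while the shares of positive cells did not, at 21.3, 19.2, 14.1, 12.2 and 6.17% of cells on the P30 plates and 34.5, 65.3 and 43.9% on the P25-P27 plates. Plate P2-1 had the lowest share. Its log2 difference was -0.16 without cells carrying melanocyte markers and -0.72 as the log2 ratio, and neither was a call.

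Most of the called adhesion genes were lower. Of 20 hemidesmosome and basement membrane genes 8 were lower and 2 higher (median -0.72), beside 5.48% lower and 11.1% higher of all rows. The count of 2 is near that share and is not read as a result about the list. Col17a1 led, followed by Npnt, an integrin ligand (-3.05), Lamb3, a chain of laminin-332 (-2.97), Dst, which holds the plakin of hemidesmosomes (-2.79), and Frem2, a basement membrane protein (-2.18), while Itga3, a laminin receptor chain, gave 1.26 and Lamc1, a laminin chain, 1.13. These 2 higher calls were absent when differences were centred, taken as log2 ratios or made without interfollicular cells. Of 13 cadherin and desmosome genes 5 were lower and 2 higher (median -0.89), beside the same shares of all rows. Cdh1, E-cadherin, was listed at 13.9, 10.8, 10.1, 8.79 and 13.1 TPM on the P30 plates, against 57.4, 63.9 and 73.2 TPM on the P25-P27 plates, with no overlap. Cdh3, P-cadherin, gave 1.0 and was listed at 33.6 against 23.8 TPM, but it was a marker of both sorts and its call was lost when differences were centred, taken as log2 ratios or made without interfollicular cells or without plate P2-1. Dsg2, a desmoglein of proliferating cells, gave 1.86, against Dsc3, a desmocollin of basal cells, at -2.16 and Perp, a desmosome-linked membrane protein, at -2.10.

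Most genes of G2 and mitosis were called higher at P30. Of 19 expressed G2 and mitosis genes 14 were higher and none was lower (median 1.31), beside 11.1% and 5.48% of all rows. Top2a, the topoisomerase that untangles chromosomes, was listed at 35.6, 36.1, 32.7, 20.4 and 27.4 TPM on the P30 plates, against 2.14, 7.52 and 10.5 TPM on the P25-P27 plates. Mki67, a mark of cycling cells, was listed at 16.1, 17.7, 20.2, 13.2 and 16 TPM on the P30 plates, against 0, 3.82 and 6.18 TPM on the P25-P27 plates. No plate overlapped for either gene, and Mki67 was seen in 54.4% of P30 cells (49.2 to 59.4) against 12.8% of P25-P27 cells (8.43 to 18.3). Ccnb1, cyclin B1, gave 1.77, Ube2c, a ubiquitin-conjugating enzyme of mitotic exit, 1.73, Cdk1, the mitotic kinase, 1.70, and Ccnb2, another cyclin B, 1.66. When differences were centred 9 of these genes were higher. Of 19 S phase genes 5 were higher and none lower (median 0.78), led by Tk1, thymidine kinase, at 23.3 TPM in P30 cells against 5.95 TPM in P25-P27 cells (2.45). That count was 14 without cells carrying melanocyte markers, 1 without interfollicular cells (Tk1) and 2 as log2 ratios.

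Of 16 G1 and cell cycle inhibitor genes 3 were higher and 3 lower, beside 11.1% and 5.48% of all rows. Cdkn1a, the inhibitor p21, was listed at 64.5, 62.4, 69.4, 53.2 and 84.2 TPM on the P30 plates, against 94.9, 34.5 and 60.7 TPM on the P25-P27 plates. Its mean TPM overlapped between the groups, and its log2 difference of 1.76 became 0.15 as the log2 ratio and -0.44 without cells carrying melanocyte markers. Ccnd2, cyclin D2, gave 1.68 and Cdkn2b, the inhibitor p15, 1.59, while Ccnd1 and Ccnd3, the other D cyclins, gave -1.08 and -1.24 and their partner Cdk6 -1.13. Cdkn2b at 0.33, Ccnd1 at -0.63, Ccnd3 at -0.78 and Cdk6 at 0.004 were not called without cells carrying melanocyte markers. Ccnd2 was not called as a log2 ratio (0.55), nor Cdk6 there (-0.93) or without plate P2-1 (-0.96), nor Ccnd1 with rescaled TPM (-1.06).

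**Figure D3:**
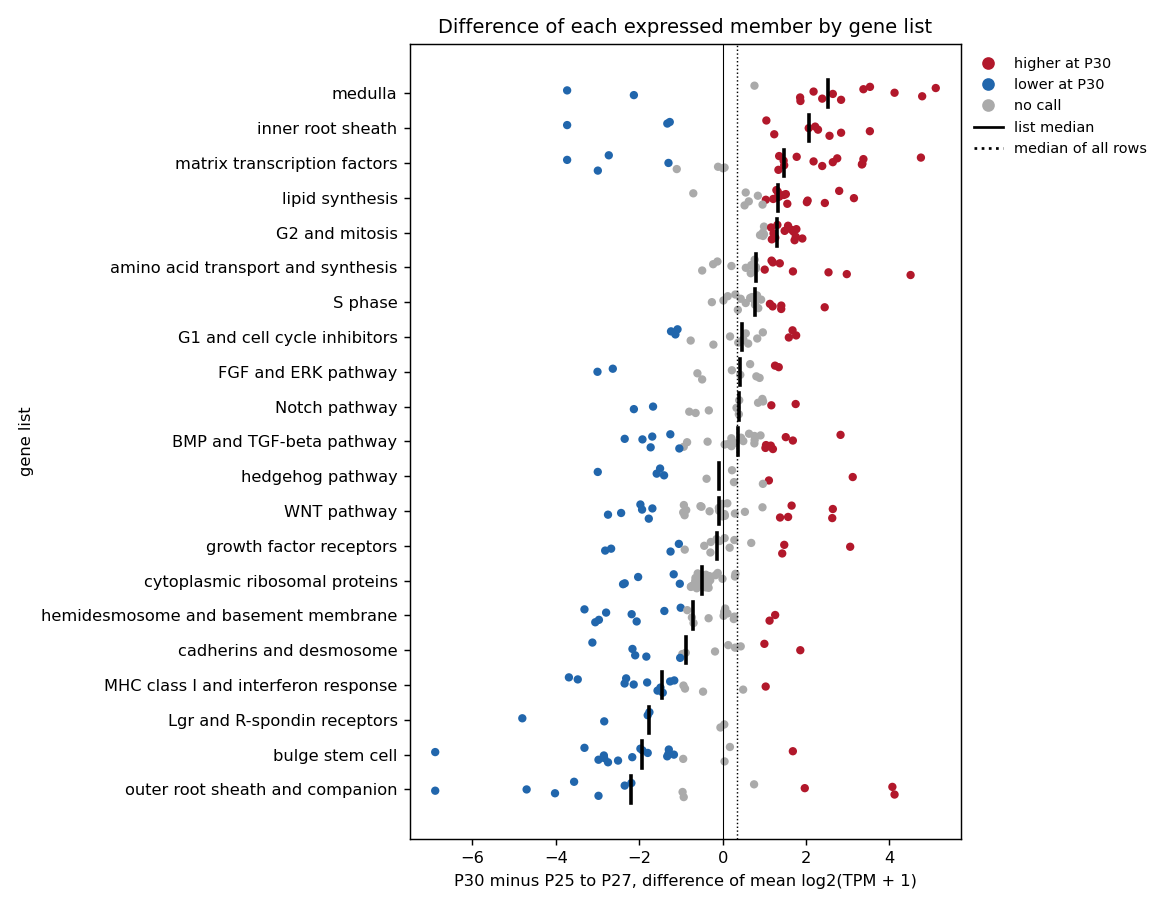
Log2 difference, P30 minus P25 to P27, of each expressed member of 21 gene lists, with members called higher at P30 in red, lower in blue and uncalled in grey. Black bars are list medians and the dotted line is the median of all rows, 0.34; medulla, inner root sheath and matrix transcription factors stand at the top, and bulge and outer root sheath genes at the bottom.

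Signalling pathways had members on both sides. Over all expressed rows 11.1% were higher and 5.48% lower, and these shares belong beside the count of each pathway below. In the WNT pathway 5 of 28 expressed genes were higher and 6 lower (median -0.09). The ligands Wnt5a, which acts largely outside β-catenin, Wnt3 and Wnt4 were higher (2.63, 1.57 and 1.38), and Wnt7b, a ligand of the early follicle, was lower (-1.77). Wnt5a was listed at 19.6, 17.8, 28.9, 20.04 and 22.2 TPM on the P30 plates, against 0.414, 2.78 and 5.09 TPM on the P25-P27 plates, so that the groups did not overlap. Of the receptors, Fzd10 was higher (1.65) and Fzd7 lower (-1.68). Sostdc1, Dkk3 and Lrp4, secreted or surface modulators of the pathway, were lower (-2.43, -1.97 and -1.93). Lef1 and Tcf7l2, both TCF factors, went opposite ways, at 2.64 and -2.75. Axin2, the feedback target of β-catenin, was listed at 14.1, 13.9, 15.1, 19.4 and 20.3 TPM on the P30 plates, against 21.8, 30.8 and 25.3 TPM on the P25-P27 plates, with a log2 difference of -0.01 and no call. Wnt7b was at -0.30 and not called without interfollicular cells, nor were Wnt3 (0.21) and Wnt4 (0.25) without cells carrying melanocyte markers, nor Lef1 under either setting.

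In the BMP and TGF-β pathway 7 of 28 genes were higher and 6 lower (median 0.37). Bambi, a decoy receptor that blunts BMP and TGF-β signals, was listed at 15.6, 19.7, 16.1, 16.6 and 25.7 TPM on the P30 plates, against 1.21, 0.219 and 0.528 TPM on the P25-P27 plates. It was higher on each P30 plate, and Bmper, a secreted BMP-binding protein, gave 1.51. The BMP antagonists Fst and Grem1 were lower, at 2.03 against 54.4 TPM (-2.35) and 0.024 against 27.5 TPM (-1.92), though neither was called without interfollicular cells. The ligands Tgfb3 and Bmp7 gave -1.73 and -1.69. Of the 7 higher genes 3 were called when differences were centred, and 2 as log2 ratios, namely Bambi and Bmper. Bmper was at 0.41 and Tgfb3 at -1.21 without cells carrying melanocyte markers, neither a call.

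In the hedgehog pathway 2 of 10 genes were higher and 4 lower (median -0.08). Gli3, the factor that mostly represses hedgehog targets, was listed at 71.7, 73.7, 73.2, 83.4 and 139.6 TPM on the P30 plates, against 12.1, 11.4 and 10.8 TPM on the P25-P27 plates. It was higher on every plate, and highest on P2-1. Gli1, the activator that is itself a target, was listed at 5.74, 3.83, 4.71, 1.79 and 2.24 TPM on the P30 plates, against 10.2, 14 and 16.2 TPM on the P25-P27 plates, and Gli2, the main activator, at 5.92 TPM in P30 cells against 19.4 TPM in P25-P27 cells. Both were lower (-1.58 and -1.40), although neither was called without cells carrying melanocyte markers (-1.02 and -0.58). The co-receptors Gas1 and Boc were lower as well (-2.99 and -1.50), Boc not being called with rescaled TPM. Ptch1, the receptor and feedback target, was at -0.39 with no call, or -1.60 and lower without interfollicular cells. Shh, the ligand, was seen in 5.01% of P30 cells against 10.7% of P25-P27 cells.

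The lists in this paragraph are small, and 11.1% of all rows were higher and 5.48% lower, so their counts are not read as pathway results. In the FGF and ERK pathway 2 of 11 genes were higher and 2 lower. The FGF receptors Fgfr3 and Fgfr1, both tyrosine kinases, gave -3.0 and -2.63, and the ETS factors Etv4 and Etv5, targets of ERK signals, gave 1.26 and 1.35. None of the 4 was called without cells carrying melanocyte markers, where they were at -0.80, -1.21, 0.61 and 1.25. Etv4 and Etv5 were not called without interfollicular cells or as log2 ratios, nor Etv4 when differences were centred. In the Notch pathway 2 of 13 were higher, the ligands Jag1 (1.75) and Jag2 (1.17), and 2 lower, the receptor Notch1 and Lfng, a glycosyltransferase that tunes it (-1.67). Jag2 at 0.84, Notch1 at -0.46 and Lfng at -0.99 were not called without cells carrying melanocyte markers. Without interfollicular cells Jag1 at 0.91 and Jag2 at 1.03 were not, and Jag2 was lost on the centred and ratio scales too. Of 17 other growth factor genes 3 were higher and 4 lower. Kitl, the KIT ligand that acts on melanocytes, was listed at 147.97, 199.2, 154.3, 183.2 and 333.9 TPM on the P30 plates, against 11.9, 28.1 and 19.9 TPM on the P25-P27 plates. Its difference of 3.06 was 0.35 and no call without cells carrying melanocyte markers. Sema3c, a secreted semaphorin, and Pdgfa, a PDGF ligand, gave -2.82 and -2.67.

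The called genes of lipid synthesis and of amino acid transport were higher, and those of glycolysis lay on both sides. Of 20 lipid synthesis genes 14 were higher and none lower (median 1.32), beside 11.1% and 5.48% of all rows. Cers4, a ceramide synthase, was listed at 27.1, 35.8, 32.8, 36.8 and 72.1 TPM on the P30 plates, against 4.99, 13 and 7.78 TPM on the P25-P27 plates (2.79). No plate of one group overlapped the other. Scd2 and Scd1, fatty acid desaturases, gave 2.45 and 2.02, Insig1, a sterol sensor, 2.04, and Sqle, squalene epoxidase, 1.55. The count was 5 without cells carrying melanocyte markers and 5 as log2 ratios, with Cers4, Scd2 and Scd1 among those called in both, and 9 when centred. Insig1 and Sqle were at 0.95 and 0.83 without cells carrying melanocyte markers and not called, and Sqle was not called without interfollicular cells (1.30) or as a log2 ratio either.

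Of 18 amino acid transport and synthesis genes 8 were higher and none lower (median 0.80), beside 11.1% and 5.48% of all rows. Beside Slc7a8, Slc7a5, a neutral amino acid exchanger, was listed at 54.2, 53.2, 67, 60.2 and 73.7 TPM on the P30 plates, against 8.99, 17.6 and 9.0 TPM on the P25-P27 plates. Its partner chain Slc3a2 stood at 117.2 TPM in P30 cells against 35.5 TPM in P25-P27 cells (1.69), and Slc7a1, a transporter of arginine and lysine, gave 2.54. Odc1, the first enzyme of polyamine synthesis, gave 1.37 but -0.49 and no call without interfollicular cells, where the count of higher genes was 4, nor was it called without cells carrying melanocyte markers (0.11). The 4 were Slc7a8, Slc7a5, Slc7a1 and Slc3a2. Of 19 glycolysis genes 3 were higher and 1 lower (median -0.10), beside 11.1% and 5.48% of all rows, so the counts are not read as a result about glycolysis. Pgam1, Pgk1 and Ldhb stood at 1.25, 1.18 and 1.04 and Hk1 at -1.12. None of the 3 higher calls was kept when differences were centred, taken as log2 ratios or made without either kind of cell. Hk1 was not called without cells carrying melanocyte markers.

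Ribosomal protein genes cannot be read simply. Of 35 genes none was higher and 5 were lower (median -0.48), beside 11.1% and 5.48% of all rows. In the 3 pairs examined, however, a pseudogene copy was higher at P30 and its parent lower in mean TPM. Rpl3 stood at 141.4 TPM in P30 cells against 536 TPM in P25-P27 cells, while Rpl3-ps1, its processed pseudogene, stood at 235.8 against 0.271 TPM and was seen in 97.4% of P30 cells against 2.04% of P25-P27 cells. Rps2 and Rps2-ps10 stood at 174.03 against 667 TPM and 352.2 against 2.58 TPM, and Rpl34 and Rpl34-ps1 at 188.1 against 652 TPM and 556 against 1.46 TPM. These parent genes are reported as uncertain, since reads of near-identical copies may be assigned to either. Of the expressed pseudogene rows 66 (25.2%) were higher and 6 lower. Rpl3-ps1 was seen in 97.1% of the P23 to P24 hair germ and 0% of the P21 hair germ, Rpl34-ps1 in 8.82% and 7.35%, and Rps2-ps10 in 25% and 27.9%, in the same order. With protein-coding genes alone, 988 of 9196 were higher (10.7%) and 525 lower (5.71%).

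Most expressed genes of antigen presentation and epidermal differentiation were called lower at P30. Of 16 expressed MHC class I and interferon genes 11 were lower and 1 higher (median -1.46), beside 5.48% lower and 11.1% higher of all rows. B2m, the light chain of MHC class I, was listed at 20.01, 27.2, 19, 19.8 and 47.4 TPM on the P30 plates, against 477, 292.6 and 286.03 TPM on the P25-P27 plates, and H2-K1, a class I heavy chain, stood at 16.1 TPM in P30 cells against 184.02 TPM in P25-P27 cells (-3.47). Without interfollicular cells 4 were lower and 1 higher (median -0.45), B2m being at -2.06 and H2-K1 at -1.63, both still lower. The H2 genes are near copies of each other, and reads may be split among them. The 5 lower genes of the interfollicular list, Dmkn, Ly6d, Sbsn, Calml3 and Krt10, had differences of -4.53 to -1.60. None of them was called without interfollicular cells. Those cells were picked by markers of this same list, so the loss of these calls came by construction. Ivl, involucrin, a cornified envelope protein, went the other way, at 23.7 TPM in P30 cells against 2.25 TPM in P25-P27 cells (2.12), but was at 0.53 and no call without cells carrying melanocyte markers.

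Of 14 calcium-binding and cross-linking genes 7 were higher and 2 lower (median 0.80), beside 11.1% and 5.48% of all rows. Csta1, a stefin protease inhibitor, stood at 47.9 TPM in P30 cells against 0.312 TPM in P25-P27 cells (2.73), and Padi4, a second deiminase, gave 1.86. Tgm5, an epidermal transglutaminase, was at 0.052 TPM in P30 cells against 30.5 TPM in P25-P27 cells (-2.71), and Tgm3 at 2.56, so that 2 enzymes of one family went opposite ways on the 4 scales, Tgm3 not being called without cells carrying melanocyte markers. Without those cells 3 genes of the list were higher, Csta1 at 0.63 and Padi4 at 0.67 not being called. S100a11, a calcium-binding protein, gave -1.13 but was not called without interfollicular cells (-0.47), as a log2 ratio or with rescaled TPM. Of 19 immediate early and stress genes 2 were higher and 2 lower (median -0.14), beside 11.1% and 5.48% of all rows, so the counts are not read as a result about this list. Egr3 and Klf4, zinc finger factors, had the largest differences up and down (2.43 and -2.15).

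Melanocyte genes were seen in P30 cells beside keratinocyte genes. Dct, a melanin synthesis enzyme, was listed at 71.7, 42.9, 53.7, 26.6 and 167.2 TPM on the P30 plates, against 0.482, 1.41 and 1.25 TPM on the P25-P27 plates, in 75.5% of P30 cells against 10.2% of P25-P27 cells. Mlana, a melanosome protein, was listed at 60.2, 57.6, 51.4, 27.4 and 154.5 TPM on the P30 plates, against 0, 0 and 0 TPM on the P25-P27 plates. P2-1 was the highest P30 plate and P1-6 the lowest for both. Of 8 expressed melanocyte genes 7 were higher and none lower, beside 11.1% and 5.48% of all rows. Mitf, the factor of the lineage, was at -0.39 with no call. Leaving out cells with melanocyte markers took away the calls of Dct and Mlana by construction. Among P30 cells Dct and Mlana had a Spearman rho of 0.72, and Dct had 0.53 with Krt75 and 0.62 with Gpnmb. Of cells with Krt75 91.3% carried Dct, against 39.1% of cells without Krt75. Acta2, smooth muscle actin, was seen in 25.3% of P30 cells against 0.510% of P25-P27 cells. By P30 plate it was seen in 9.88 to 33.8% of cells. Myh11, the smooth muscle myosin, was seen in 6.60% of P30 cells against 0.510% of P25-P27 cells. Cspg4, the single gene of the smooth muscle and pericyte list to pass the expression filter, went the other way and was lower (-1.89). Without cells carrying melanocyte markers Cspg4 was at -0.86 and not called. The median summed level of that list was 4.75 TPM at P30 and 23.5 TPM at P25-P27, while its mean was higher at P30.

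P30 cells varied among themselves along a few axes. In descriptions of pairs of genes over the P30 cells, which share plates and depth and are not replicates, the medulla genes were tightly tied. Krt75 had a rho of 0.88 with Foxq1 (0.82 to 0.91 by plate), 0.80 with Padi3 (0.75 to 0.81) and 0.75 with Tchh (0.67 to 0.80). Gpnmb went with them, at 0.90 with Foxq1 and 0.89 with Krt75. Krt75 was present in 81.4% of cells with Padi3 and in 19.4% of cells without it. Hoxc13 stood with this group, at 0.74 with Foxq1, and also with Msx2, at 0.66.

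Dlx3, Msx1 and Lef1 formed a looser group with the inner root sheath keratins. Dlx3 had a rho of 0.63 with Msx2, 0.63 with Msx1, 0.56 with Lef1 and 0.52 with Krt25, but 0.28 with Padi3. Krt25 had 0.49 with Mki67 (0.42 to 0.58 by plate) and -0.06 with Padi3, while Padi3 had -0.35 with Mki67 (-0.43 to -0.26). Cells high in Mki67 therefore tended to be higher in Krt25 and lower in Padi3 within each plate. Krt5 had -0.56 with Tchh and 0.58 with Krt14. Lgr5 and Krt15 went together, at 0.50, and 51 of the 55 cells with Lgr5 had Krt15.

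**Figure D4:**
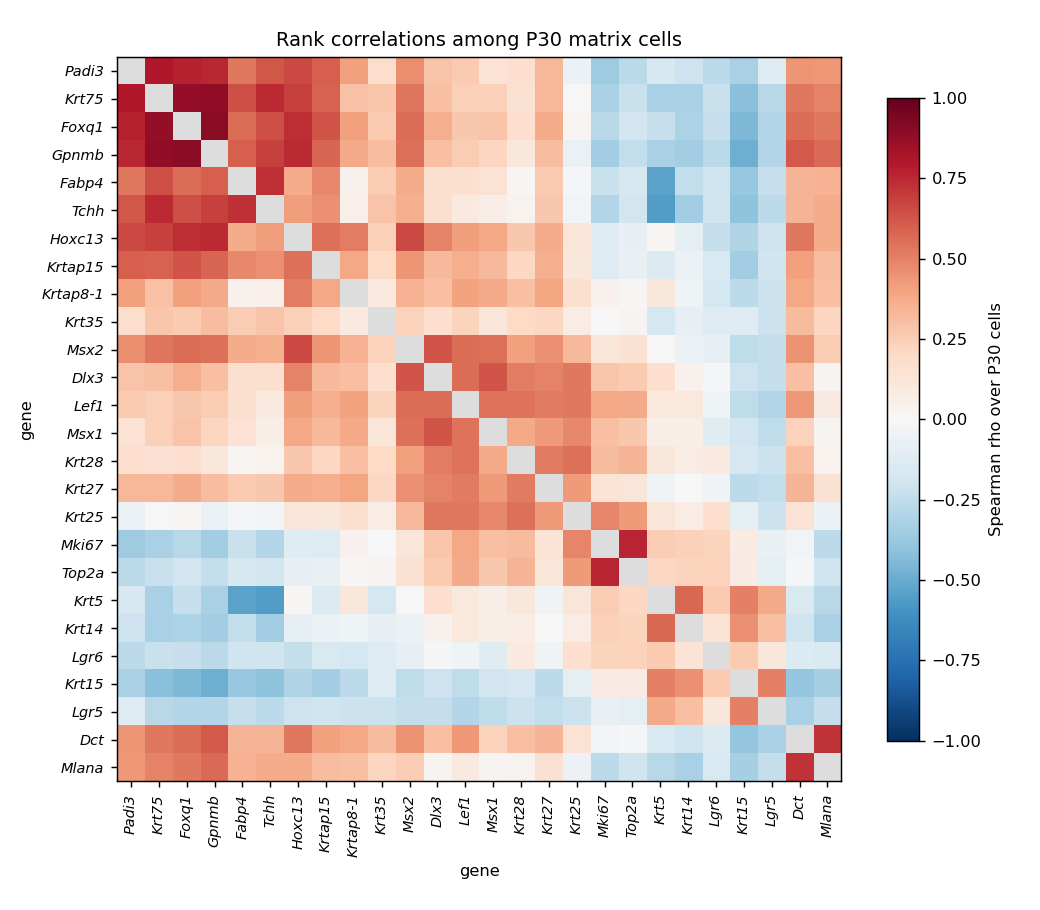
Spearman correlations of log2(TPM + 1) between pairs of 26 genes over P30 matrix cells, with red for positive and blue for negative values and grey on the diagonal. The block at the upper left holds Padi3, Krt75, Foxq1 and Gpnmb at 0.755 to 0.901, and Krt15 is negative with Gpnmb at -0.492.

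Shares of cells were taken along the same axes. At least 2 of the 3 medulla genes Padi3, Krt75 and Foxq1 at a TPM of 10 or more were present in 59.1% of P30 cells (50 to 82.7% by plate). No P25-P27 cell had 2 of them, which by the same limit of 3 cells allows up to 1.53% of cells with listed values. Padi3 was not detected in any P25-P27 cell, and Padi3 and Krt75 are markers of the comparison, so this absence is not a separate result. At least 2 of the 3 inner root sheath keratins Krt25, Krt27 and Krt28 were present in 39.8% of P30 cells (32 to 43.7% by plate) and in 1 P25-P27 cell. At least 2 of the 3 hair shaft genes Krt35, Krtap8-1 and Krtap15 were present in 28.8% of P30 cells (26.8 to 29.7% by plate). Krtap8-1 and Krtap15 were not detected in any P25-P27 cell, so none of those cells could reach 2 and their absence here is not a separate result. The sets overlapped. Cells with both medulla and sheath genes made up 44.6% of the medulla cells and 66.2% of the sheath cells, and those with both medulla and shaft genes 44.6% of the medulla cells and 91.7% of the shaft cells. None of the 3 sets was present in 27.2% of P30 cells. Of these shares the medulla share varied most by plate, being highest on P2-1.

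Levels along the hair cycle place the 2 matrix groups. In the order P21 bulge (39 cells), P21 hair germ (68), P23 to P24 hair germ (68), P25 to P27 hair germ (16), P25-P27 matrix and P30 matrix, Dlx3 had mean log2(TPM + 1) levels of 3.12, 1.68, 1.60, 1.0, 0.66 and 5.42. It was thus lowest in the P25-P27 matrix and highest at P30. Slc7a8 had 2.21, 2.97, 2.61, 2.51, 0.78 and 5.28, and Msx2 had 1.24, 1.90, 0.85, 1.44, 0.84 and 4.18. Padi3 was at most 0.087 before P30 and 4.78 at P30.

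Among the lower genes, Lgr6 had levels of 3.05, 4.98, 5.10, 5.56, 5.21 and 0.40, high through germ and P25-P27 matrix and lowest at P30. Krt15 had 11.92, 10.64, 9.70, 11.42, 8.50 and 1.61, and Lgr5 had 6.57, 6.44, 5.08, 5.30, 2.76 and 0.96, so that both were lower in the P25-P27 matrix than in the bulge and lower again at P30. Gata3 was at 4.14, 5.15, 4.32, 4.97, 4.83 and 1.10. Mki67 had 0.0, 0.14, 2.36, 0.0, 0.53 and 2.28, and its level at P30 was close to that of the P23 to P24 germ. The earlier groups had 1 or 2 plates each, so neighbouring levels among them cannot be set against a plate spread.

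**Figure D5:**
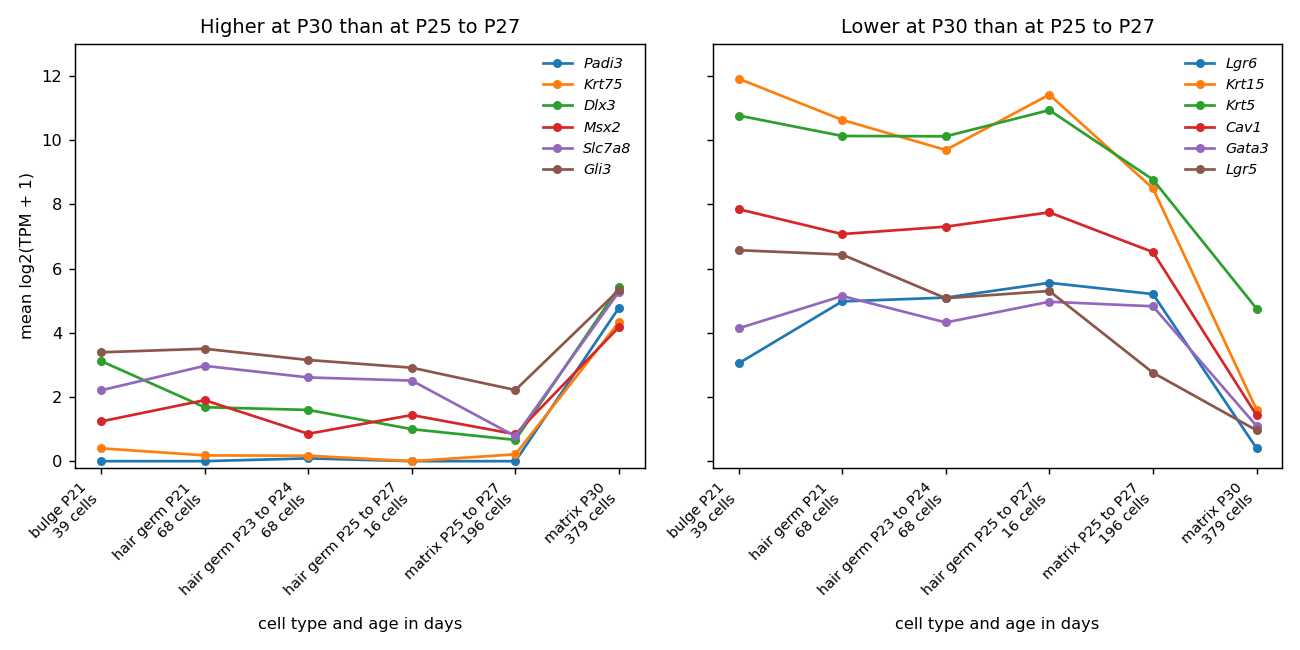
Mean log2(TPM + 1) of 12 genes along the labelled cell types and ages, in time order with the number of cells under each, for genes higher (left) and lower (right) at P30 than at P25 to P27. Dlx3, Padi3, Krt75 and Msx2 stand at 4.18 to 5.42 in the P30 matrix, and Lgr6 and Krt15 at 0.40 and 1.61.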

How the data were processed

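Single cells were sorted into plates and sequenced with Smart-seq2, per the labels' protocols. The values are the authors' deposited TPM per gene and cell in 2 tables of 46609 rows, and per the submitters' processing notes the tools were Bowtie2 2.2.9 and RSEM 1.2.30 on mm10. TPM columns sum to a fixed total within rounding and keep no depth, so read depth is unknown and intervals cover the counting of cells only. Rows of ribosomal RNA (362), spike-ins (92) and mitochondria (37) were left out of gene counts and calls, but stay in the TPM total unless rescaling is named. RSEM divides reads among near-identical copies, which can move TPM between genes and pseudogenes.

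Gene identity, position and biotype came from GENCODE M21 (GRCm38), which held 46005 of the row identifiers. Differences are of mean log2(TPM + 1) over cells with at least 2000 genes, which kept 379 of 384 P30 cells and 196 of 199 P25-P27 cells. Leaving out cells with melanocyte markers left 129 P30 and 184 P25-P27 cells. Leaving out cells carrying 3 or more interfollicular differentiation markers left 358 and 92. No test was run, since each group counts as 1 sample. Plates were read from the start of the titles, and all columns matched a sample. Genes were named by rule: the 5 markers, the 12 largest differences in each direction with plates apart (without predicted models, pseudogenes and sort genes), and up to 6 members with the largest differences of each of the 37 lists described, with signalling genes named at any level. Others named for losing or keeping a call, and Krt71, Krt31, Krt86, Krt81, Myh11 and the Eno1 and ribosomal pairs, were chosen after their values were seen. The members and lists were chosen with earlier results of these data known. The steps were checked on the real cells, shuffled across groups and plates, with changes planted in widely detected rows. Shuffling removes plate and group differences, so the check does not cover plate shifts or sparsely detected genes. The P30 dermal papilla table was not used here. Alternatives were other pseudocounts, scales, filters, cell minimums and left-out plates and cells. Python 3.11.15 with numpy 2.4.6, pandas 2.3.3, scipy 1.17.1 and matplotlib 3.10.9 was used. Promoter letters were counted in RefSeq sequences on GRCm38.p6.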

Additional observations from a re-analysis of the deposited data

Results flagged for a closer look

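Among the 25 genes named for the markers and the largest differences, 6 had a P30 plate that stood apart from the other 4 by Dixon's criterion on plate means of log2(TPM + 1). No label says whether plates differ in animal, and chance flags about 1 in 20 groups. Plate P2-1 stood above the others for Gpnmb, at 8.0 against 5.11 to 5.72, for Soat1, at 7.33 against 4.94 to 5.60, and for Aldh1a3, at 5.71 against 3.37 to 3.93. It stood above them for Anxa8 too, at 0.50 against 0.00 to 0.10, and below them for Gjb2, at 5.44 against 5.76 to 5.84. Plate P1-6 was the lowest for Krt5, at 4.50 against 4.77 to 4.87. All 6 genes kept their call without plate P2-1. The same plate had the largest share of cells with medulla genes, 82.7%, and the highest levels of Dct and Mlana among the P30 plates, and the part this plays was not tested.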

How the results depend on the processing

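No paired analysis was possible because cells carry no animal, and plates of the 2 groups share no number. Called rows are given as percentages of the same 9842 rows. Against 11.12% higher, 5.48% lower and a median difference of 0.337, rescaling after leaving out the ribosomal RNA, spike-in and mitochondrial rows gave 38.21% higher and a median of 0.779, centring 5.27% higher and 0.000, and the log2 ratio of mean TPM + 1 gave 5.97% higher, 8.27% lower and -0.100. A pseudocount of 0.1 gave 39.06% higher and a median of 0.849, and one of 10 gave 1.44% higher, 1.89% lower and 0.044. The median was 0.025 with no gene filter and 0.161 without interfollicular cells. Leaving out 1 plate gave 9.76 to 14.66% higher, 5.32 to 5.85% lower and medians of 0.288 to 0.404.

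The 5 markers kept their direction and call throughout. Lgr6 stood at -6.237 rescaled, -7.185 with a pseudocount of 0.1 and -2.483 with 10. In the same order Msx2 stood at 4.811, 5.337 and 1.498, Dlx3 at 6.457, 7.127 and 2.429, Krt75 at 5.613, 6.238 and 2.183, and Padi3 at 6.677, 7.511 and 2.379. As log2 ratios Msx2, Dlx3, Krt75 and Padi3 stood at 2.879, 3.599, 5.199 and 6.449. Without cells carrying melanocyte markers they stood at 2.124, 3.762, 1.484 and 3.030. Krt75 and Padi3 were at 3.178 and 4.299 without cells carrying 3 markers of any other type, and Msx2 was at 2.608 without interfollicular cells. The gap in positive cells was 70.2 percentage points for Padi3 at a TPM of 10 or more, and 52.3 points for Msx2 in cells of 4000 to 8000 genes.

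For the 25 genes of the markers and largest differences, 26.5% of 475 values under these settings moved by more than the plate spread. Of 646 list medians 24.3% did. None of these with a main value of at least 1 in size changed sign. Other genes named above did. Prdm1 went from 2.388 to -0.129 and Cdkn1a from 1.763 to -0.438 without cells carrying melanocyte markers. Odc1 went from 1.371 to -0.487 without interfollicular cells, and Cux1 from 1.355 to -0.037 as a log2 ratio. List medians under 1 in size were not counted for changes of sign, and some did change it. That of the FGF and ERK pathway went from 0.424 to -0.758 without interfollicular cells, and that of the hedgehog pathway from -0.08 to 0.225 with rescaled TPM. The cause of these moves was not tested. With 1 sample per group and no depth in TPM, differences between animals could not be estimated.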
